A study of Mus musculus with 25 samples.

Results

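The oral and nasal sides of the anterior secondary palate of the mouse were compared at E14.5 by RNA-seq of laser captured tissue. The comparison took the 3 anterior oral and 4 anterior nasal libraries out of the 25 of the series, and the 10684 of 37406 listed genes with at least 5 RPKM (reads scaled to transcript length and to library depth) in at least 3 of these 7 libraries. All embryos were wild type and of the CD1 strain, an outbred stock, and no group was treated or carried a mutant allele. The other 18 libraries came from the medial and lateral anterior palate and from the 4 compartments of the posterior palate. The paper calls the replicates biological, while the labels do not say whether the captures of a group came from separate embryos. The p-values measure the spread between these libraries, which may be in part technical.

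The palatal shelves are outgrowths of the maxillary processes, filled with mesenchyme that derives mostly from the cranial neural crest and covered by epithelium. The oral side will line the roof of the mouth and the nasal side the floor of the nasal passages, where respiratory epithelium and, beneath it, membranous bone form. Sonic hedgehog from the epithelium signals to the mesenchyme, and transcription factors such as Runx2 and Dlx5 direct mesenchymal cells towards bone.

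Marker levels showed mesenchyme in all 7 libraries. The summed level of 20 listed mesenchymal genes lay between 1489 and 1887 RPKM in the oral and between 1629 and 2129.5 RPKM in the nasal libraries, and 18 of the 20 reached the minimum. Counted reads, as worked out from the values, lay between 1.64 M and 6.56 M per library, so that 5 RPKM on a transcript of 2000 bases had a counting error of 12.4% to 24.7%. Oral replicate 1 was the shallowest and stood apart. Its log2 values correlated with the other oral libraries at a mean r of 0.656 across genes, against 0.741 and 0.795 for oral replicates 3 and 2 and 0.800 to 0.865 for the nasal libraries with each other. Oral replicate 1 correlated more with each nasal library (r of 0.717 to 0.778) than with oral replicates 2 and 3 (0.710 and 0.602). Oral replicate 2 was closest to nasal replicate 3, at 0.928, against 0.880 with oral replicate 3. The median r was 0.792 between the groups, 0.710 within oral and 0.837 within nasal palate, so the oral libraries did not group by compartment. Where leaving out oral replicate 1 moved a count of passing genes by over 1.5 times, the count without it is given below.

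Genes were called here by a fold change over 2 together with an unadjusted P below 0.05. Past both thresholds were 154 genes, 1.44% of those tested. Of these, 70 were higher in oral (0.655%) and 84 higher in nasal palate (0.786%). The P was under 0.05 for 318 genes, 2.98% of those tested. This is below the share of 0.05 that chance would give if no gene differed. After Benjamini-Hochberg adjustment in limma 0 genes (0%) stayed below 0.05, with 0.114 as the lowest adjusted p. The differences below are therefore described gene by gene with no claim on the whole list. The gene lists below were chosen with earlier results of these data known. Their counts are to be read beside the 0.655% and 0.786% over all genes. A fold change over 3 was reached by 49 genes, 17 of them higher in oral and 32 in nasal palate. The values of the 2 groups did not overlap for 116 of the 154 genes, against 3.67% of all genes tested. The genes were called on these same values, which favours separate groups, so this is a description only. Nearest to the fold threshold in the nasal direction were Enpep inside it, at 9.22 to 14.9 RPKM in nasal and 4.38 to 7.44 RPKM in oral palate, and Col14a1 outside it, with a log2 fold change of -0.98. All log2 fold changes are oral minus nasal, on the scale log2(RPKM + 0.1), and the fold differences are taken from them. For genes with values near 0 their size depends on the added 0.1 and on single libraries. Over the alternatives, with libraries left out included, the log2 fold change ran from -6.15 to -3.22 for Cxcl13 and from -5.29 to -2.63 for Gsc.

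Which genes passed depended on single libraries. Without oral replicate 1, 259 genes passed and 151 of them were higher in oral palate, while 103 of the 154 were among them. Leaving out oral replicate 3 gave 188 genes, 60 higher in oral and 128 in nasal palate. The expression minimum also bears on the list, since 33 of the 84 nasal genes had no oral library at 5 RPKM and 8 of the 70 oral genes had no nasal library there. Such genes were tested because they were high in one group. In each of the 3 sequencing runs that held both groups, 143 of the 154 genes differed in the same direction, against 19.3% of all genes. These run values use the same libraries as the test and are a description only.

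**Figure D1:**
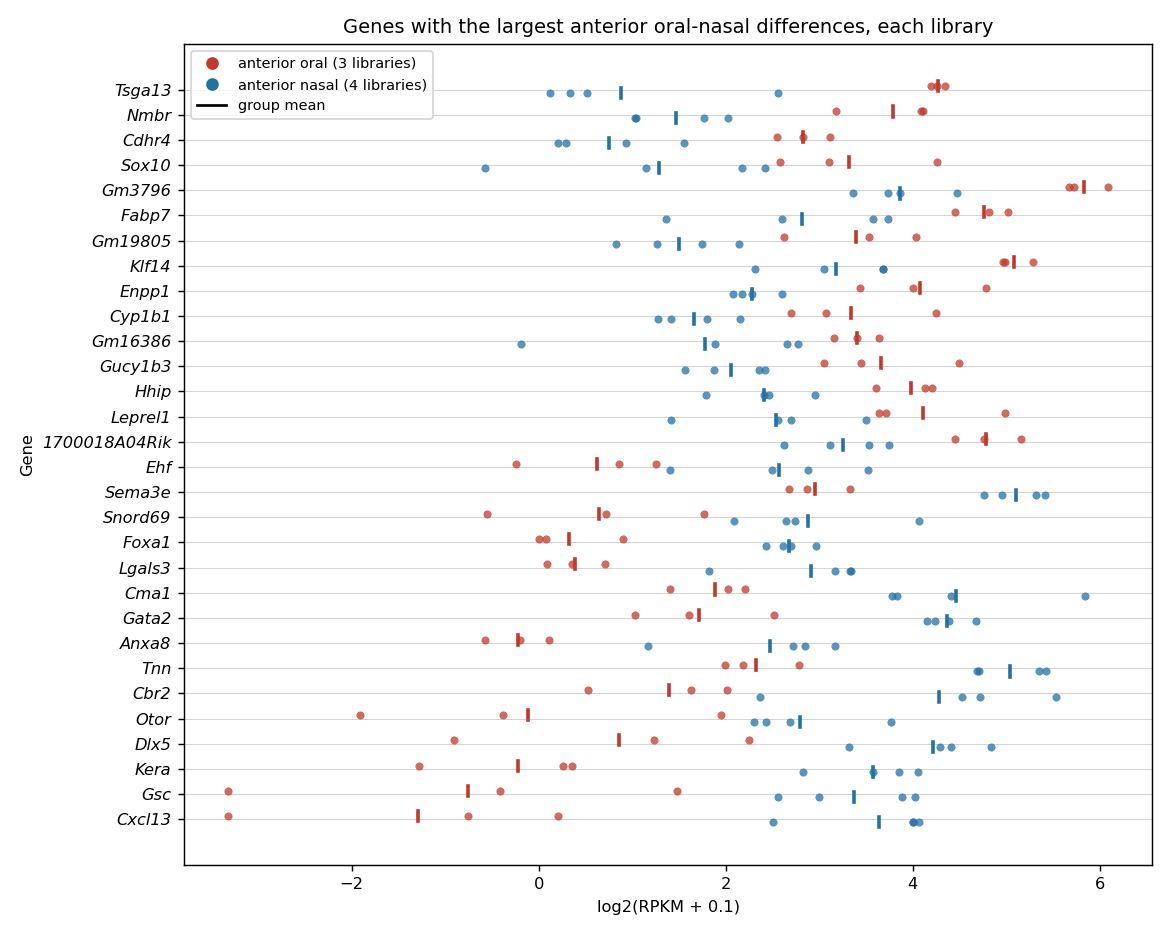
Each point is 1 library of the anterior oral (red, 3) or anterior nasal (blue, 4) palate, placed by log2(RPKM + 0.1), and each vertical bar is a group mean. The genes shown are the 15 in each direction with the largest fold change among those past the thresholds with values that did not overlap, from Cxcl13 at the bottom, which was 30.6-fold higher in nasal palate, to Tsga13 at the top, which was 10.4-fold higher in oral palate.

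The largest nasal difference was that of Cxcl13 (chromosome 5, 96385958 to 96390087, in mm9 as are all positions taken from the deposited table), a chemokine that attracts B lymphocytes. It was at 5.57, 16.7, 15.9 and 15.9 RPKM in nasal replicates 1 to 4 and at 1.05, 0.494 and 0 RPKM in oral replicates 1 to 3. Every nasal library was thus above every oral one, and nasal replicate 1 was the lowest of its group. The log2 fold change was -4.93 ± 0.80 (SE, limma adjusted p = 0.2). Among the 8 compartments Cxcl13 was highest in anterior nasal palate, at 13.5 ± 5.31 RPKM (SD, n = 4), followed by anterior lateral palate at 3.74 ± 1.05 RPKM (SD, n = 3), and the other 6 compartments had means of at most 0.581 RPKM.

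Goosecoid, encoded by Gsc (chromosome 12, 105709419 to 105711446), is a homeobox factor of craniofacial mesenchyme. Its nasal values were 7.88, 16.2, 14.7 and 5.79 RPKM and its oral values 0, 2.69 and 0.65 RPKM, with no overlap. The log2 fold change was -4.12 ± 0.99 (SE, limma adjusted p = 0.761). Gata2, a zinc finger factor of blood lineages that is also found in other tissues, was at 17.6, 20.9, 18.8 and 25.4 RPKM in nasal and at 5.64, 2.95 and 1.94 RPKM in oral palate. That was a 6.25-fold difference. Mast cells also express Gata2, and the mast cell proteases Cma1 and Cpa3 passed in the same direction, as given further below with the list members that did not. The part of mast cells in the level of Gata2 was not tested.

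Several genes of bone formation were higher in nasal palate. Among 25 listed osteoblast genes 15 reached the minimum, of which 4 passed the thresholds as higher in nasal palate and 0 as higher in oral palate. The median log2 fold change of the 15 was -0.42, against -0.01 over all genes tested. Dlx5, a homeobox activator of osteoblast differentiation, was at 9.86, 28.5, 19.5 and 21.2 RPKM in nasal palate and at 0.434, 2.24 and 4.65 RPKM in oral palate, a 10.3-fold difference. Runx2 (chromosome 17, 44740950 to 44951746), the master factor of the osteoblast lineage, was at 34.3, 63.1, 50.3 and 46.4 RPKM in nasal and at 18, 15 and 12.4 RPKM in oral palate. Its groups lay well apart, with a log2 fold change of -1.66 ± 0.28 (SE, limma adjusted p = 0.2). Tnn, which encodes tenascin-W, a matrix protein of periosteum, had the smallest P of all genes tested. Its nasal values were 26, 40.7, 42.9 and 25.7 RPKM and its oral values 6.78, 4.44 and 3.88 RPKM, with a log2 fold change of -2.72 ± 0.31 (SE, limma adjusted p = 0.114).

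Sp7, the osteoblast factor that acts after Runx2, was low in the anterior palate. It was at 2.19, 5.1, 8.03 and 5.54 RPKM in nasal and 0.963, 2.04 and 3.69 RPKM in oral palate. These groups overlapped, the unadjusted P of 0.0485 was close to the threshold, and Sp7 no longer passed under 6 of the alternatives tried or without oral replicate 1 or 2. The list had 4 passing genes also without oral replicate 1, as another member then passed. The later matrix genes named here did not pass. Ibsp, bone sialoprotein, was at 3.63 to 31 RPKM in nasal and 4.69 to 14 RPKM in oral palate. Alkaline phosphatase, encoded by Alpl, was at 31.5 to 47.1 RPKM in nasal and 9.7 to 42.9 RPKM in oral palate. Both pairs of ranges overlapped. Type I collagen gene Col1a1 had higher values in all nasal libraries (163 to 208 RPKM) than in all oral ones (129 to 137 RPKM), with a log2 fold change of only -0.42.

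The promoter of Runx2 is shown because this factor is the regulator that the osteoblast list turns on and because Runx proteins are known to bind the promoter of their own gene. The 250 bases before the start given by RefSeq (GRCm38.p6, chr17:44814628-44814877, minus strand) hold 1 match to the Runx motif AACCACA or its complement, in capitals, which begins 81 bases before the start.
Runx2: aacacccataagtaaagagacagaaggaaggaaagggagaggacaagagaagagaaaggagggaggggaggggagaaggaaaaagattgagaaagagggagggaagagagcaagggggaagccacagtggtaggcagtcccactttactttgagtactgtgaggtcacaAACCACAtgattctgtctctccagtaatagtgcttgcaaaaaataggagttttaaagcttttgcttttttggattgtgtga
The motif was searched on both strands in the windows of 104 of the 153 distinct genes past the thresholds. It was found in 3 of 55 nasal genes (5.45%), Anxa8, Cpa3 and Runx2, and in 1 of 49 oral genes (2.04%), Stap2, against 5.08% of 27025 genes with a window. The share among nasal genes is close to that of all genes, and a match describes the letters of the window only. A Gli motif searched in the same way was found in 0 of the 49 oral and 0 of the 55 nasal genes, against 0.255% of all genes, which says only that its letters are not in these windows.

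Genes of cartilage were also higher on the nasal side. Of 24 listed genes 9 reached the minimum, 4 passed the thresholds as higher in nasal palate and 0 as higher in oral palate, and the median log2 fold change of the 9 was -0.67. Sox9, the factor that starts the chondrocyte program, was at 35.6, 70.7, 53.3 and 48 RPKM in nasal and at 12.1, 19.3 and 34.4 RPKM in oral palate. Oral replicate 3 almost reached the lowest nasal library. Col2a1, the main cartilage collagen, was at 14.8, 25.7, 24.4 and 17.3 RPKM in nasal and 4.45, 7.67 and 13.3 RPKM in oral palate. Col9a3, a chain of type IX collagen, was 2.23-fold higher in nasal palate, and Otor, a small secreted protein first found in cartilage of the inner ear, was 7.52-fold higher. Without oral replicate 1 the list had 2 such genes in place of 4.

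Matrix genes of dense connective tissue followed the same direction. Among 22 listed small leucine-rich proteoglycans and fibrous matrix genes 16 reached the minimum, and 6 passed the thresholds, all higher in nasal palate, with a median log2 fold change of -0.82 over the 16. Kera, keratocan, a keratan sulphate proteoglycan best known in the cornea, was at 11.8, 6.99, 14.3 and 16.5 RPKM in nasal and at 0.313, 1.18 and 1.1 RPKM in oral palate, a 13.9-fold difference. Dcn, decorin, a binder of collagen fibrils, was far more abundant, at 183, 280, 243 and 152 RPKM in nasal and 116, 107 and 31.6 RPKM in oral palate. Prg4, the lubricant proteoglycan of joints, ranged from 1.89 to 30.2 RPKM in nasal and from 0.637 to 3.27 RPKM in oral palate. Nasal replicate 2 was the lowest nasal library and overlapped the oral values. Aspn, asporin, also overlapped, while Col8a1 and Col8a2, which encode type VIII collagen, did not. With a replicate block Col8a1 no longer passed. Without oral replicate 1 the list had 9 passing genes, and 4 to 9 over the libraries left out in turn.

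Guidance molecules were represented by 46 semaphorins, netrins and their receptors, 31 of which reached the minimum. Past the thresholds were 4 of them in nasal and 0 in oral palate, and the median of the 31 was -0.08. Sema3e, a secreted ligand of plexin D1 that repels vessels and axons, was at 27, 42.4, 30.9 and 39.7 RPKM in nasal and at 9.95, 7.22 and 6.29 RPKM in oral palate. The groups were widely separated, with a log2 fold change of -2.15 ± 0.27 (SE, limma adjusted p = 0.114). Sema3a, a ligand of neuropilin-1, was at 32.7, 37.1, 32.6 and 50.7 RPKM in nasal and 14, 11.5 and 11.9 RPKM in oral palate in the more abundant of its 2 rows, which overlap in position and cannot be told apart as transcripts here. The other Sema3a row, at 5.21 to 13.3 RPKM in nasal and 2.63 to 5.09 RPKM in oral palate, also passed. Sema3c had 2.42-fold higher values in nasal palate.

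Of the receptors, Unc5d, a netrin receptor of the repulsive class, was at 16.8, 18.4, 14.3 and 24.7 RPKM in nasal and at 5.82, 3.58 and 4.82 RPKM in oral palate. Unc5c, of the same class, varied little within a group, with 32.7, 31.7, 30.1 and 33.8 RPKM in nasal and 16, 15.6 and 17.9 RPKM in oral palate, and missed the fold threshold with a log2 fold change of -0.95. Nrp1, the neuropilin that binds Sema3a, pointed the other way at a log2 fold change of 0.59, as did Sema6d at 0.68. Neither of these passed the thresholds, although the values of both were higher in every oral than in every nasal library.

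On the oral side, 3 of the 11 Hedgehog pathway genes that reached the minimum (16 listed) passed the thresholds and were higher in oral palate, and 0 were higher in nasal palate. All 3 are feedback targets of the pathway, and the median of the 11 was -0.03. Ptch1 (chromosome 13, 63609644 to 63666828), the Hedgehog receptor that its own signal induces, was at 64.7, 102 and 115 RPKM in oral and at 33.2, 26.2, 36 and 46.6 RPKM in nasal palate. Its log2 fold change was 1.39 ± 0.30 (SE, limma adjusted p = 0.533). Hhip, a membrane protein that binds and sequesters the ligand, was at 12.1, 18.3 and 17.4 RPKM in oral and 7.68, 3.36, 5.42 and 5.23 RPKM in nasal palate. Gli1, the transcriptional activator that reports pathway activity, was at 5.46, 21 and 24.2 RPKM in oral and at 3.43, 3.19, 3.98 and 9.15 RPKM in nasal palate. Oral replicate 1 fell within the nasal range, so the groups overlapped for Gli1. It no longer passed with nasal replicates 1 and 2 as 1 library or in 4 of the 7 fits that left out 1 library.

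The other tested components did not pass. Smo, the signal transducer, was at 41.5 to 58.4 RPKM in oral and 44.2 to 64.3 RPKM in nasal palate, and Gli3, the repressor, at 26.7 to 35.7 and 29.6 to 37.9 RPKM. The co-receptor gene Cdon was higher in every nasal library (31.4 to 41.8 RPKM) than in every oral one (22.5 to 29 RPKM) without passing. Shh itself was at most 0.686 RPKM in any library and Ihh at most 0.569 RPKM, below the minimum for testing. Of 7 Fox and Osr factors known to respond to Hedgehog 5 reached the minimum and 0 passed in either direction. Their median was 0.60, with Osr1 at 0.60, Foxf2 at 0.63 and Osr2 at 0.40.

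**Figure D2:**
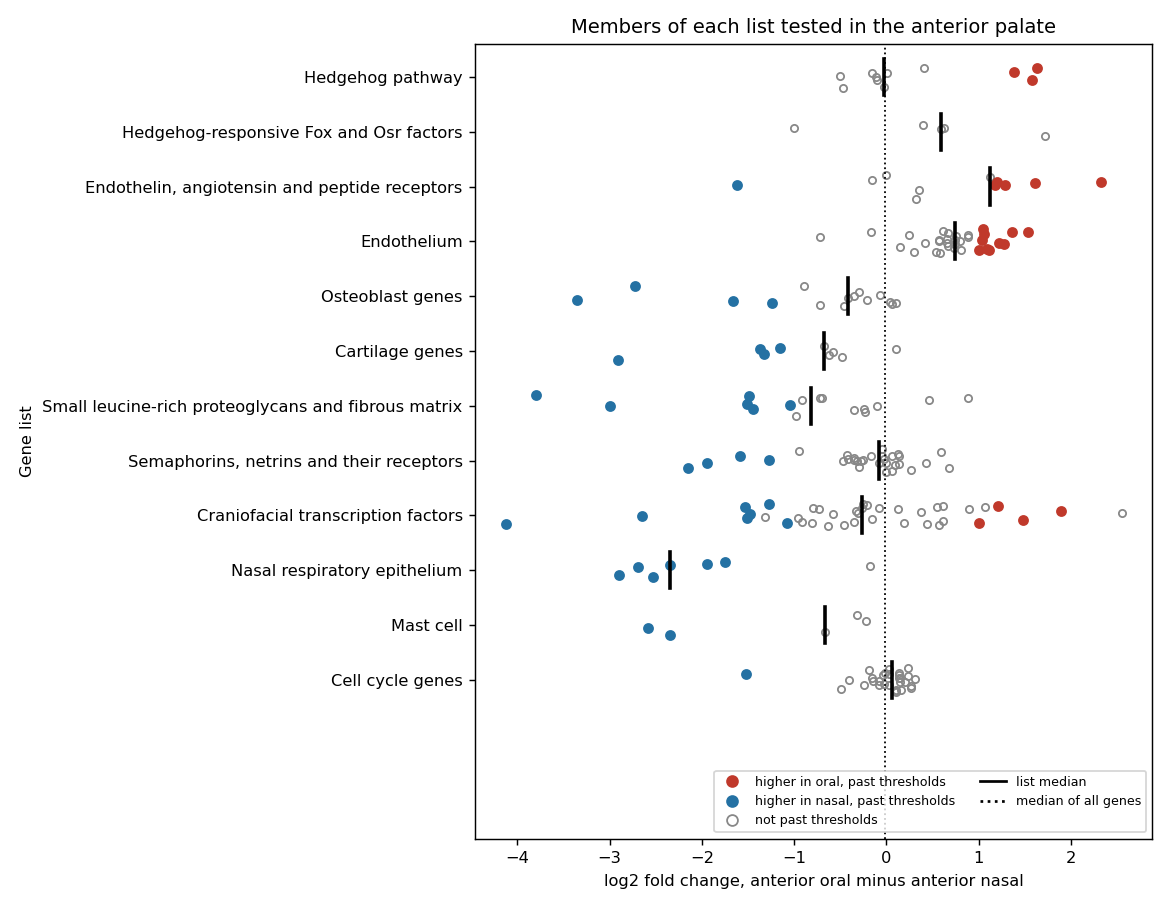
Each point is 1 gene that reached the expression minimum, placed by its log2 fold change, anterior oral minus anterior nasal. Red and blue points passed the thresholds in the oral and nasal direction, open points did not, the short bars are list medians and the dotted line is the median of all genes tested. The endothelial list has a median of 0.74 and the cartilage list of -0.67, while cell cycle genes lie close to 0 with a median of 0.06.

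Tsga13 (chromosome 6, 30846981 to 30865573), a gene named for its expression in testis and without a known role in the palate, was the most oral gene among those with separate groups. It was at 19, 20.2 and 18.3 RPKM in oral and at 0.989, 1.33, 1.17 and 5.79 RPKM in nasal palate. The log2 fold change was 3.38 ± 0.56 (SE, limma adjusted p = 0.2), and ranged from 2.81 to 3.94 over the alternatives. Klf14, a zinc finger factor whose gene lies on the same chromosome at 30906021 to 30908990, was at 31.6, 31.3 and 38.8 RPKM in oral and at 12.8, 12.7, 8.21 and 4.88 RPKM in nasal palate. In oral and nasal posterior palate Klf14 had means of 12.2 ± 4.11 and 12.4 ± 2.44 RPKM (SD, n = 3), and Tsga13 of 2.86 ± 2.05 and 1.84 ± 0.45 RPKM (SD, n = 3).

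Receptors, ligands and enzymes of vasoactive and other signals were listed together, with earlier results of these data known. In the list of 20 such genes 11 reached the minimum, with a median of 1.12. Of these, 5 passed as higher in oral and 1 as higher in nasal palate, against 0.655% and 0.786% of all genes tested. Nmbr, the receptor of neuromedin B, was at 8.95, 16.9 and 17.2 RPKM in oral and at 1.94, 3.3, 3.96 and 1.96 RPKM in nasal palate, a 5.02-fold difference. Its ligand gene Nmb was at 5.32 to 9.64 RPKM in oral and 1.32 to 5.79 RPKM in nasal palate and did not pass. Ednrb, the endothelin receptor of melanocyte and enteric precursors and of endothelium, was at 18.2, 11.3 and 10.9 RPKM in oral and 7.11, 7.15, 4.94 and 4.02 RPKM in nasal palate, with no overlap. Npr3, the clearance receptor of natriuretic peptides, and Gucy1a3 and Gucy1b3, the subunits of the nitric oxide receptor guanylate cyclase, were the others, and Npr3 no longer passed with a replicate block. Penk, the enkephalin precursor, was 3.07-fold higher in nasal palate. The very abundant angiotensin receptor gene Agtr2 was at 294, 221 and 86 RPKM in oral and 170, 179, 252 and 130 RPKM in nasal palate, with ranges that overlapped. Without oral replicate 1 or without oral replicate 3, 3 receptor genes passed in place of 5.

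Enpp1, a nucleotide pyrophosphatase that restrains mineralization, was at 10.7, 16 and 27.5 RPKM in oral and at 5.99, 4.4, 4.11 and 4.77 RPKM in nasal palate. That was 3.47-fold, with separate groups. Fgf10, a mesenchymal growth factor that acts on epithelium, was at 15, 8.03 and 5.74 RPKM in oral and 5.06, 2.46, 2.42 and 7.45 RPKM in nasal palate. Its groups overlapped, its unadjusted P was 0.0424, and it was the 1 gene to pass of 16 FGF pathway genes at the minimum. Fgf10 no longer passed under 7 of the alternatives tried, the sequencing run as a covariate among them, or under 4 of the 7 fits that left out 1 library. App, the amyloid precursor protein gene, did not pass, with a log2 fold change of -0.35 ± 0.37 (SE).

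Wnt, BMP and retinoid genes were split. Of 20 Wnt pathway genes at the minimum 2 were higher in oral and 2 in nasal palate. Wif1, a secreted inhibitor that binds Wnt, was at 33.7, 21.4 and 22 RPKM in oral and 14.4, 6.54, 9.84 and 8.1 RPKM in nasal palate, and Wisp1, a Wnt target, was 2.28-fold higher in oral palate. The inhibitors Dkk2 and Sostdc1 were higher in nasal palate with groups that overlapped, and neither Sostdc1 nor Wisp1 passed with a replicate block. Of 21 BMP and GDF genes 3 were higher in nasal and 0 in oral palate. Gdf10, a TGF-beta family ligand, and Id2, a BMP target, were among them. In the retinoid list of 13 the synthesis enzyme genes differed in direction, Aldh1a2 being 2.31-fold higher in oral and Aldh1a1 2.59-fold higher in nasal palate, and Cyp1b1, which can also oxidize retinol, was at 19, 8.29 and 6.41 RPKM in oral and 2.32, 3.38, 2.56 and 4.36 RPKM in nasal palate. Id2 and Aldh1a1 did not pass with the sequencing run as a covariate.

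Of 57 craniofacial transcription factors 39 reached the minimum, with 4 higher in oral and 7 in nasal palate and a median of -0.27. Beside Gsc and Gata2, the nasal genes were Mkx, a tendon homeobox factor at 16.9 to 39.7 against 6.29 to 12.7 RPKM, Eya4, Pou3f3, Snai1 and Trps1. The oral genes were, beside Klf14, Lbh, a regulator of limb and heart development at 16.1, 38.7 and 47.1 RPKM against 17.2, 8.24, 15.5 and 6.57 RPKM, Ebf3 and Nr2f2. With a replicate block Trps1 and Nr2f2 no longer passed. The cell cycle list had 30 of 31 genes at the minimum and 1 past the thresholds, Cdkn1a, the inhibitor p21, at 11.2, 14.8, 13.4 and 6.54 RPKM in nasal and 3.3, 3.88 and 4.14 RPKM in oral palate.

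Markers of other cell types moved with the comparison. In these bulk libraries fewer cells of a type and less RNA per cell cannot be told apart. Endothelial genes were higher on the oral side. Of 38 listed, 33 reached the minimum, 31 had a fold change above 0, and 10 passed the thresholds, all in the oral direction, with a median of 0.74. Tek, the angiopoietin receptor, was at 21.1, 21.3 and 14.8 RPKM in oral and at 8.89, 8.07, 7.72 and 7.47 RPKM in nasal palate, with no overlap. Emcn, endomucin, and Clec14a behaved likewise, and the others were Arap3, Gimap4, Egfl7, Slco2a1, Fli1, Madcam1 and Thsd1. The summed level of the 38 genes was 435, 681 and 711 RPKM in oral replicates 1 to 3 and 496, 303, 354 and 315 RPKM in nasal replicates 1 to 4, so that oral replicate 1 fell within the nasal range. With a replicate block 6 of the genes passed, without oral replicate 1 17, without oral replicate 2 5, and without nasal replicate 4 6. Pecam1 and Cdh5, which define the lineage, had log2 fold changes of 0.76 and 0.65 and did not pass. The part of endothelium in the levels of Ednrb, Gucy1a3, Gucy1b3 and Npr3, which vessels also express, was not tested.

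Of 21 listed nasal respiratory genes 14 were below the minimum and untested, 7 reached it, and 6 of these passed as higher in nasal palate. Only 1 passed with a minimum of 10 RPKM, and 3 passed without nasal replicate 1 or without nasal replicate 2. Cbr2, a carbonyl reductase of airway epithelium, was at 26.2, 46.2, 23 and 5.06 RPKM in nasal and at 2.99, 3.93 and 1.34 RPKM in oral palate. Foxa1, a factor of endodermal and airway epithelia, was at 7.69, 5.3, 6.4 and 6.02 RPKM in nasal and at 0.957, 0.9 and 1.77 RPKM in oral palate. The others were Anxa8, Lgals3, Ehf and Met. None of the 6 had an oral library at 5 RPKM, so they were tested for being high in nasal palate. The summed level of the 21 genes was 103, 125, 767 and 50.5 RPKM in nasal and 22.7, 192 and 24 RPKM in oral palate, with oral replicate 2 above 3 nasal libraries. Most of the sum in oral replicate 2 and nasal replicate 3 was Agr2, a secretory cell gene at 167 and 682 RPKM there and at most 2.66 RPKM in the other 5 libraries. Of 18 genes in the stratified list 8 reached the minimum, and Krt14, Krt17 and Sostdc1 passed as higher in nasal palate with groups that overlapped. Krt14 no longer passed without oral replicate 1 or nasal replicate 2. Krt17 did not pass with a pseudocount of 1, with all 25 libraries in the fit or without oral replicate 1. Of 19 genes in the ciliated list 7 reached the minimum, and Rsph1 was also higher in nasal palate. The sums of those 2 lists overlapped between the groups. Cdhr4, placed in the ciliated list, went the other way, at 7, 5.74 and 8.56 RPKM in oral and 1.06, 1.12, 2.84 and 1.82 RPKM in nasal palate. The part of epithelium in the nasal differences was not tested.

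Of the 14 listed mast cell genes 5 reached the minimum, and 2 proteases passed as higher in nasal palate. Cma1, a chymase, was at 21.1, 57.5, 13.6 and 14.2 RPKM in nasal and 3.97, 4.53 and 2.55 RPKM in oral palate. Cpa3, carboxypeptidase A, was at 36.4, 61.5, 31.3 and 71.6 RPKM in nasal and at 33.8, 5.13 and 4.5 RPKM in oral palate, so oral replicate 1 overlapped the nasal range. Of the proteases below the minimum, Tpsab1 was at 0.846 to 7.02 RPKM in nasal and at most 1.23 RPKM in oral palate, while Mcpt4 was at 1.28, 1.45 and 0 RPKM in oral palate and at 0.467 RPKM in nasal replicate 1 and listed at 0 in the other nasal libraries. Ms4a2 was listed at 0 in 6 of the 7 libraries and Fcer1a in all 7. The summed level was 119, 188, 76.2 and 127 RPKM in nasal and 79.9, 43 and 23.8 RPKM in oral palate. Lst1, from the list of 20 white cell genes, was the 1 gene of it to pass and no longer did with a replicate block. Of the 17 listed nerve and Schwann cell genes 7 reached the minimum, with a median log2 fold change of 0.10. The fold change was above 0 for 4 and below 0 for 3. Sox10 and Fabp7, genes of glia and their neural crest precursors, passed as higher in oral palate, at 8.49, 5.88 and 19.1 RPKM against 5.25, 0.573, 2.11 and 4.41 RPKM for Sox10. The summed level of the list overlapped between the groups, at 120 to 152 RPKM in oral and 99.4 to 156 RPKM in nasal palate. The summed levels of the red cell, skeletal muscle and pericyte lists overlapped between the groups, and 0 of their genes passed.

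**Figure D3:**
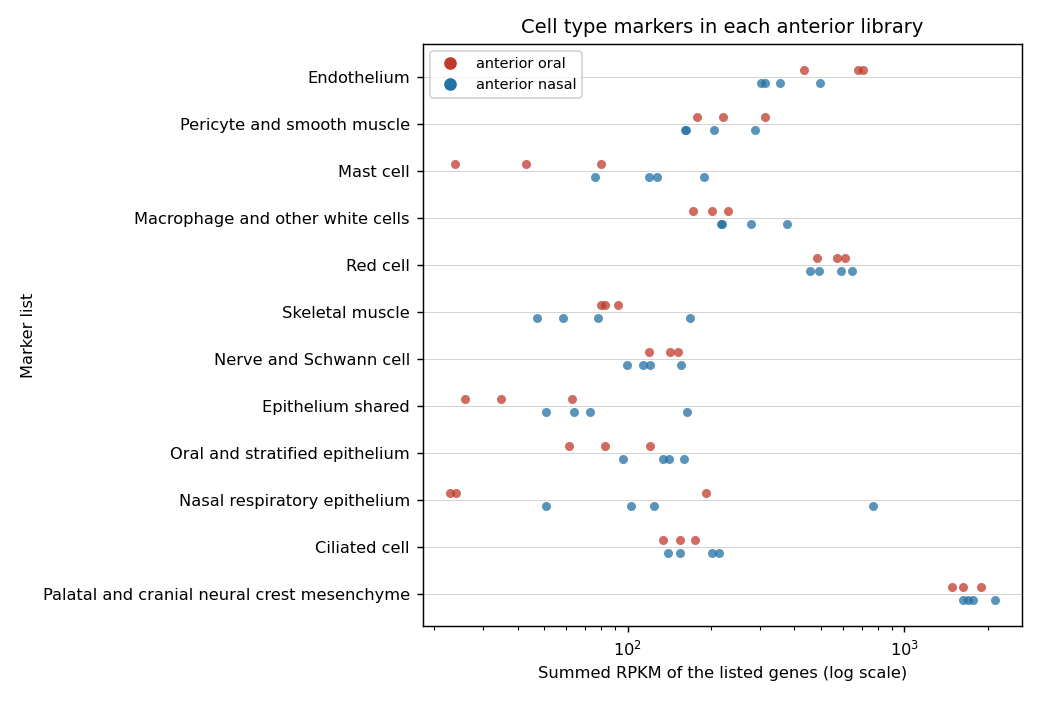
Each point is 1 library of the anterior oral (red) or anterior nasal (blue) palate, placed on a log scale by the summed RPKM of a list of cell type markers. Endothelial sums ran from 435 to 711 RPKM in oral and from 303 to 496 RPKM in nasal palate, mast cell sums from 23.8 to 79.9 RPKM and from 76.2 to 188 RPKM, and the mesenchymal sums overlapped.

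Other genes with large, separate differences belonged to none of the lists. In oral palate these were Gm3796 at 50.9 to 68.2 RPKM against 10.2 to 22.1 RPKM, Gm19805, Gm16386, Leprel1, a prolyl hydroxylase of collagen, and 1700018A04Rik. In nasal palate it was, beside Cxcl13, Snord69, a small nucleolar RNA. Gm16386 no longer passed with the sequencing run as a covariate, with no filter, or in 5 of the fits that left out a library. Gm19805, Leprel1 and Snord69 did not pass with all 25 libraries in the fit, and Leprel1 also not without oral replicate 3. Snord69, Snora15, Snord88c, Mir301, Mir32 and Mir103-2 were the 6 small RNA genes past the thresholds. Snord88c was at 7.99, 5.8 and 7.59 RPKM in oral palate and listed at 0 in nasal replicates 1, 2 and 4 but at 14.2 RPKM in nasal replicate 3. So short a gene rests on few reads at this depth, and its groups overlapped. These small RNAs other than Snord69 were named after their values were seen.

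The posterior palate offered libraries that the anterior comparison did not use, 3 oral and 3 nasal, 1 of each from a run that also held anterior libraries. Past the same thresholds were 370 of 10586 genes there (3.5%). Of the 154 anterior genes 114 reached the minimum in the posterior palate. Among these 114, 99 (86.8%) differed in the same direction, 46 of 52 oral and 53 of 62 nasal genes, against 52.6% of the 10098 genes tested in both places. Of the 99, 45 also passed the thresholds in the posterior palate and 19 had an adjusted p under 0.05 there. The median posterior log2 fold change was 1.16 for the anterior oral genes and -0.52 for the anterior nasal genes, against 1.30 and -1.44 in the anterior palate over all 70 and 84.

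The 4 osteoblast genes past the anterior thresholds were also higher in posterior nasal palate. The posterior means were 101 ± 6.77 RPKM (SD, n = 3) in nasal and 44.8 ± 7.41 RPKM (SD, n = 3) in oral palate for Runx2. For Dlx5 the posterior log2 fold change was -2.35 (limma adjusted p = 0.0227), for Tnn -2.12 (adjusted p = 0.0202) and for Sp7 -3.08. Sp7 reached 82.8 ± 26 RPKM (SD, n = 3) in posterior nasal palate against 5.21 ± 2.39 RPKM (SD, n = 4) in anterior nasal palate. Ibsp, with an anterior log2 fold change of 0.10, had a posterior one of -6.22. Of 14 osteoblast genes tested in both places 8 passed in the posterior palate, all nasal, against 87 nasal genes among all 10098 tested in both. Of the oral genes, Enpp1 had a posterior log2 fold change of 2.61 (adjusted p = 0.0153), Fgf10 of 2.04 and Hhip of 1.49. Of 30 endothelial genes tested in both places 16 passed as higher in posterior oral palate, against 177 of all 10098. Ptch1 and Gli1 had posterior log2 fold changes of only 0.33 and -0.05, and the interaction defined below had an adjusted p of 1 for both.

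**Figure D4:**
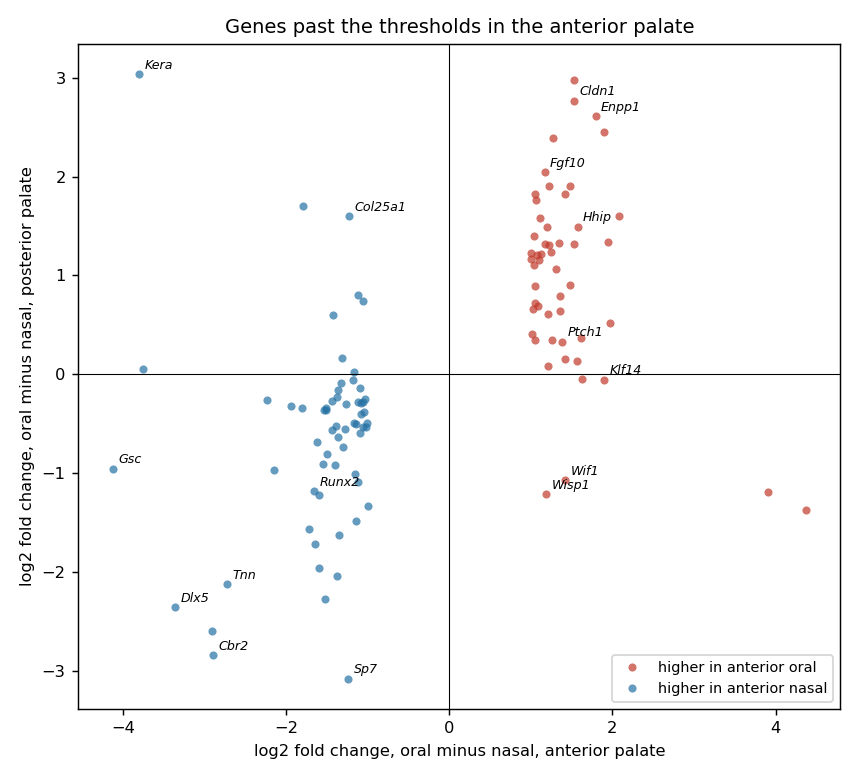
Each point is 1 of the 114 genes past the thresholds in the anterior palate that also reached the minimum in the posterior palate, placed by its log2 fold change, oral minus nasal, in the anterior (x axis) and posterior (y axis) palate. Of the points, 46 red and 53 blue ones have the same sign on both axes, and Kera, Wif1 and Wisp1 are among the 15 that do not.

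Whether an oral-nasal difference was itself unlike in the 2 parts of the palate was tested as an interaction over 11442 genes. The P was under 0.05 for 3.38% of them, again below the share of 0.05 that chance would give if no gene differed. The adjusted p was under 0.05 for 4 (0.035%), Cxcl13, Pcdh10 and Unc5c among them. Pcdh10 and Unc5c were higher in nasal palate in the anterior part and in oral palate in the posterior part. Cxcl13 was higher in anterior nasal palate, but far below 5 RPKM in every posterior library, so no posterior direction is read from it. Cxcl13 was at 0.292, 0.752 and 0.7 RPKM in posterior oral palate and listed at 0 in all posterior nasal libraries, and the interaction was -7.62 ± 1.00 (SE, log2, limma adjusted p = 0.0326). With a pseudocount of 1 it was -3.87 (adjusted p = 0.00997), but it no longer passed with a pseudocount of 0.01, quantile normalization, the replicate block, the sequencing run as a covariate or no filter. With libraries left out in turn Cxcl13 passed only without anterior oral replicate 1 or 3 or without anterior nasal replicate 1 or 2. Unc5c was at 18.9, 23.8 and 18.9 RPKM in posterior oral and 11.5, 11.9 and 13.2 RPKM in posterior nasal palate (adjusted p = 0.0463). Pcdh10, a protocadherin, was at 5.29, 3.09, 4.83 and 4.01 RPKM in anterior nasal, 1.03, 0.928 and 1.78 RPKM in anterior oral, 6.39, 9.78 and 6.94 RPKM in posterior oral and 2.40, 3.87 and 3.21 RPKM in posterior nasal palate (adjusted p = 0.0385). With a replicate block, or with the sequencing run as a covariate, 0 genes passed. Among the alternatives Unc5c passed only with a pseudocount of 1, and with no library left out in turn. Pcdh10 no longer passed with a pseudocount of 0.01, quantile normalization or no filter. With libraries left out in turn it passed only without anterior oral replicate 3 or without anterior nasal replicate 2. Past the thresholds in both places but in opposite directions were 6 genes, among them Kera, Wif1, Wisp1, Col25a1 and Snord88c, the last 2 of which were named after their values were seen.

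**Figure D5:**
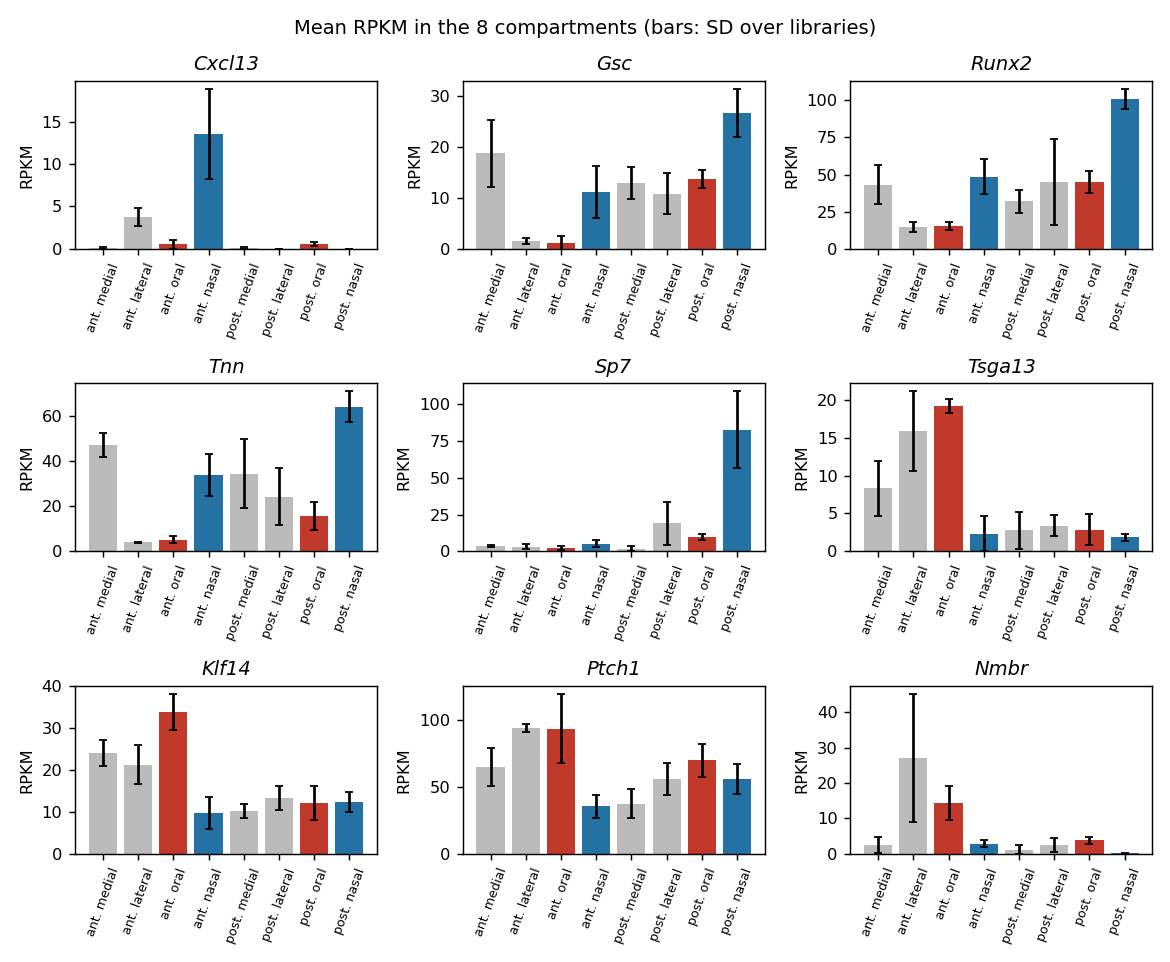
Bars are mean RPKM over the libraries of each of the 8 compartments (4 for anterior nasal and 3 for each of the others) and whiskers are 1 SD, with oral compartments in red, nasal in blue and medial and lateral in grey. Tsga13 was highest in anterior oral palate at 19.2 RPKM, Cxcl13 in anterior nasal palate at 13.5 RPKM, and Runx2 in posterior nasal palate at 101 RPKM.

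Levels in the medial and lateral palate placed these genes further. Runx2 was at 43.3 ± 13 RPKM (SD, n = 3) in anterior medial palate, within the spread of its anterior nasal level of 48.5 ± 11.9 RPKM (SD, n = 4), and at 14.6 ± 3.29 RPKM (SD, n = 3) in anterior lateral palate, within the spread of its anterior oral level of 15.1 ± 2.78 RPKM (SD, n = 3). Tnn and Gsc were likewise high in the medial and low in the lateral palate, with Gsc at 18.8 ± 6.59 RPKM (SD, n = 3) in anterior medial and 1.55 ± 0.65 RPKM (SD, n = 3) in anterior lateral palate. The lateral level of Ptch1, 93.9 ± 3.08 RPKM (SD, n = 3), did not differ beyond the spread from its oral level of 93.6 ± 25.9 RPKM (SD, n = 3). Gata2 was instead at 12.1 ± 3.6 RPKM (SD, n = 3) in anterior lateral and 3.05 ± 1.27 RPKM (SD, n = 3) in anterior medial palate.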

How the data were processed

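Total RNA of laser captured compartments of wild type E14.5 palate was amplified with the NuGEN kit, tagmented and sequenced. The authors deposited RPKM values, computed with GeneSpring from single-end reads after removal of duplicates and of reads with several alignments. The submitters' processing notes name TopHat and mm9, with no role given, and the gene annotation is not given in the sources used here. Groups and replicate numbers came from the sample titles. The sequencing run came from the column names of the study's supplementary tables.

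Values were taken as log2(RPKM + 0.1), for genes that reached 5 RPKM in 3 or more of the compared libraries, and tested with limma 3.58.1 in R 4.3.3 (lmFit, eBayes, no covariate) with Benjamini-Hochberg adjustment over all genes tested. The interaction was fitted on the 13 oral and nasal libraries. No permutation test was run, since 3 libraries against 4 cannot go below 0.0571. The fits were tested on simulated data. Lists are given by counts and medians, with no set test. The members, lists and alternatives were chosen with earlier results of these data known. The genes named were the 15 in each direction with the largest fold change among those past the thresholds with values that did not overlap, every list member past the thresholds with others needed to account for a list, the genes that the study names for this comparison, and the interaction genes. Of 594 list entries 589 matched a gene. Some genes that the rule would name are not reported here.

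Counts of reads are not used here. The depth of each library was worked out from the steps between low values, and 289 of 300 ratios between pairs of libraries were the same by way of other libraries. It covers the reads left after the authors' filters, and the errors given from it are counting error only.

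Libraries with the same replicate number deviated together from their group means (r = 0.239, 0.215 and 0.13 for numbers 1, 2 and 3, across genes), all above 0.1, so the numbers were taken to pair the libraries, although oral replicate 2 with nasal replicate 3 (r = 0.504) and oral replicate 3 with nasal replicate 4 (r = 0.15), which share a run, correlated more, and a fit with a replicate block was made as an alternative. Anterior nasal replicate 4 has no partner and adds nothing to the difference in that fit. Other alternatives were other pseudocounts, scaling, filters, a variance trend, the run as a covariate, all 25 libraries in the fit, the mean of nasal replicates 1 and 2, which came from 1 run, as 1 library, and leaving out each library. Promoter windows are from RefSeq (GRCm38.p6). Figures were made with matplotlib 3.10.9.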

Additional observations from a re-analysis of the deposited data

Results flagged for a closer look

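In the group of 4 anterior nasal libraries, 7 of 101 values tested had 1 library far from the other 3, where chance gives about 1 in 20. Anterior nasal replicate 1 was low for Cxcl13 (5.57 RPKM) and high for Gucy1a3 (18.1 RPKM) and Slco2a1 (5.31 RPKM), and both of the latter are endothelial or vascular genes for which the other nasal libraries were lower. Anterior nasal replicate 4 was high for Tsga13 (5.79 RPKM) and Trps1 (24.3 RPKM) and low for Krt14 (8.82 RPKM). Anterior nasal replicate 3 was low for Lgals3 (3.43 RPKM).

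The oral-nasal difference differed between the anterior and posterior palate by the interaction test for Cxcl13 (-7.62 on the log2 scale), Pcdh10 (-2.99) and Unc5c (-1.69). Each of these calls was lost under several of the alternatives. Those of Cxcl13 and Pcdh10 were also lost in most of the fits that left out a library, and that of Unc5c in all of them.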

How the results depend on the processing

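Past the thresholds were 117 to 259 genes with 1 library left out (59 to 151 oral, 57 to 128 nasal), 725 (212 oral, 513 nasal) with no filter on low values and 76 (33 oral, 43 nasal) at 10 RPKM. The other alternatives gave 121 to 210, the replicate block 210 and the run as a covariate 179, with 133 and 135 of the 154 genes among them. Genes with an adjusted p under 0.05 numbered 6 with all 25 libraries in the fit (Tnn, Cxcl13, Klf14, Foxa1, Gsc and Ptch1) and 0 to 6 with 1 library left out. For the interaction they numbered 7 with a pseudocount of 1, 1 with 0.01, 0 with quantile normalization, the replicate block, the run or no filter, and 0 to 5 with 1 library left out, against 4. The 99 genes with the same posterior direction, of 114 tested there, became 63 at 10 RPKM, where 76 genes passed in the anterior palate. They became 72 to 161 with 1 library left out, where 117 to 259 passed. These counts move with the number of genes that passed and are not shares. Endothelial genes passing were 10, but 6 with a pseudocount of 1, the replicate block, 10 RPKM or all libraries, and 5 to 17 with 1 left out. Receptor genes went from 5 to 2 at 10 RPKM and 3 to 6 with 1 left out, cartilage genes from 4 to 7 with no filter and 2 to 4, and nasal respiratory genes from 6 to 10 with no filter, 1 at 10 RPKM and 3 to 6. The log2 fold change of Agtr2, -0.00088, turned to 5.89e-05 with a pseudocount of 1, 0.15 with quantile normalization and 0.0665 with the run, and ranged from -0.36 to 0.52 with 1 library left out. Of the 88 genes taken by the naming rule, 11 no longer passed with the replicate block and 18 with all 25 libraries, and of 84 still tested 17 and 16 no longer passed without oral replicates 1 and 2. The cause of these changes was not tested. Depth limits what can be said of genes near 5 RPKM and of short RNAs.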
